A study of Mus musculus with 12 samples.

Results

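The 10 genes described here code for the metallothioneins Mt1, Mt2 and Mt3, the zinc exporter Slc30a1, the copper pump Atp7a, the copper-carrying ferroxidase Cp, the ferritin chains Fth1 and Ftl1, the transferrin receptor Tfrc and the iron exporter Slc40a1. They were taken from a table of 56748 genes by their gene symbol, and each symbol stood on 1 row. Of the 10, 9 passed the filter on low counts and were tested among 18334 genes. Mt2 did not pass and is described by its counts.

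The table holds poly-A RNA-seq of whole mouse retinas in 4 groups of 3 mice, with 1 retina from a separate mouse in each library. The groups are JR5558 at 8 weeks, JR5558 at 4 weeks, C57BL/6J at 8 weeks and C57BL/6J at 4 weeks of age, and no treatment is given for any group. JR5558 is an inbred line whose retinas form new vessels under the photoreceptors without any intervention, and it is known to carry rd8, a Crb1 mutation, together with a mutant Jak3. C57BL/6J is the age-matched wild-type strain and not a littermate, so all alleles that differ between the strains move together. The series is about proline metabolism and subretinal fibrosis, a scarring under the retina.

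Metallothioneins are small cysteine-rich proteins that bind zinc and copper. Free zinc activates the transcription factor Mtf1, which binds metal response elements in the promoters of Mt1, Mt2 and Slc30a1, while Mt3 is known as the brain form and responds little to metals. Iron enters cells as transferrin bound to Tfrc, is stored in a ferritin shell built of Fth1 and Ftl1 chains, and leaves through Slc40a1, whose exported iron is oxidised by ferroxidases such as Cp. Iron regulatory proteins bind stem-loops called iron responsive elements when iron is low, which blocks translation of ferritin and Slc40a1 mRNA and stabilises Tfrc mRNA. Much of the control of ferritin is therefore not seen in mRNA levels. In the retina, Muller glia and the pigment epithelium are known to take part in iron transport.

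Library totals ran from 18029611 to 23739886 counts. Gnat1 and Sag, photoreceptor genes that mark retina, had 6200 to 8770 and 3340 to 4790 CPM (counts per 1e+06 counts of a library, scaled by TMM). Within groups, Pearson correlations of log2 CPM were 0.970 to 0.990 across tested genes, and no 2 libraries agreed within sampling noise. In a principal component analysis of 500 genes the leading axis (58.8%) split the strains, and replicate 3 of JR5558 at 4 weeks stood apart on the second. All 3 JR5558 libraries of 4 weeks held counts of Y-linked genes (Ddx3y, 1323 to 1846) and at most 5 Xist counts. In the remaining 9 libraries Ddx3y was at 0 and Xist at 7772 to 22988 counts. Sex and group therefore cannot be told apart between strains at 4 weeks or between ages within JR5558. The same holds for the change of the strain difference with age, which includes those libraries. The 8-week strain comparison and the age comparison of C57BL/6J are free of this. Xist still differed with age in C57BL/6J, at 8928 to 15577 counts at 8 weeks against 16416 to 22988 at 4 weeks. It was called lower at 8 weeks (edgeR), against 0.229% of all genes.

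The promoters of the metallothionein genes are shown because the genes lie next to each other and have different values in the same libraries. In the deposited table all 3 are on the + strand of chromosome 8, Mt3 at 94879235 to 94880774, Mt2 at 94899292 to 94900196 and Mt1 at 94905710 to 94906955. Which build these positions use is unsettled, since the notes name mm10 and the positions do not match the mm10 annotation used here. The windows below come from RefSeq on GRCm38.p6, + strand, 250 bases before to 50 after the listed start, at chr8:94178839-94179138 for Mt1, chr8:94172368-94172667 for Mt2 and chr8:94152357-94152656 for Mt3. Capitals mark matches to the core of the metal response element, spelled TGCACNC or TGCGCNC, on either strand.
Mt1: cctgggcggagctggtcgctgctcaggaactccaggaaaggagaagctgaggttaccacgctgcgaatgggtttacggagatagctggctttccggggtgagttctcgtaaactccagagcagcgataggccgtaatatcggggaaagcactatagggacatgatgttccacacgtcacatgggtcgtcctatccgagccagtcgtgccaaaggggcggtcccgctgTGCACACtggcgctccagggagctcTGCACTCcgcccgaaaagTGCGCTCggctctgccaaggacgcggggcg
Mt2: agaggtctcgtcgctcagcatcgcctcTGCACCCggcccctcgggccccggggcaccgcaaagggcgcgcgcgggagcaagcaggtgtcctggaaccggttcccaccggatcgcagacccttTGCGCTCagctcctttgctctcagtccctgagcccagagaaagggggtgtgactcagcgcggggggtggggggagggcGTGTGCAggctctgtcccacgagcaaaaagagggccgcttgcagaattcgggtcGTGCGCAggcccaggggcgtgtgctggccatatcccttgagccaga
Mt3: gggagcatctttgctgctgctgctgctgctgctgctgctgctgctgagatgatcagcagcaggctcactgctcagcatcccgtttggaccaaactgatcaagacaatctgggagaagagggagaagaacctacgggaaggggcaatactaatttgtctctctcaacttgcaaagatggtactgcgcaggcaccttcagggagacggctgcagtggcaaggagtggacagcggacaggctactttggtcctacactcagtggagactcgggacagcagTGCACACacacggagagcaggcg
The core was found 3 times in the Mt1 window, 4 times in the Mt2 window and 1 time in the Mt3 window, with no overlap between matches. Among 32851 promoter windows of the same length, 1.97% held at least 3 matches, 0.517% at least 4 and 25.7% at least 1. The Slc30a1 and Atp7a windows held 2 matches each, and 1 of the Tfrc windows held 2 that overlap, a number reached by 7.11% of all windows. No match was found in the windows of Cp, Fth1 and Ftl1, and Slc40a1 had no window. A match is a run of letters and not a measured binding site, and bases outside each window were not searched. The listed start of Mt1 may lie upstream of its main start site, so its window may lack bases next to that site, and the numbers of matches are not compared between the windows.

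The iron responsive elements of 4 members are shown because they mark genes whose control by iron acts mainly after transcription. A search of the untranslated regions of GENCODE M21 coding transcripts looked for a C, 5 stem bases, the loop CAGTGN and 5 bases pairing with the stem (G-T pairs allowed). Capitals mark the loop, and the names say whether the site lies in the 5′ or the 3′ untranslated region.
Fth1, 5′ site: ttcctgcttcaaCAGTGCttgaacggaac
Ftl1, 5′ site: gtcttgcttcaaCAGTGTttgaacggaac
Slc40a1, 5′ site: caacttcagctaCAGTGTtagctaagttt
Tfrc, 3′ site 1: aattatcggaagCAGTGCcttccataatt
Tfrc, 3′ site 2: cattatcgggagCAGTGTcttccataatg
Tfrc, 3′ site 3: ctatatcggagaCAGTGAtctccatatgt
Tfrc, 3′ site 4: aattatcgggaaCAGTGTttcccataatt
Fth1, Ftl1 and Slc40a1 each held 1 such site in the 5′ region, and Tfrc held 4 in the 3′ region. Of 21877 coding genes, 0.142% held a match in the 5′ region and 0.59% in the 3′ region. The other 6 members and the other metal genes searched held none. The search required this loop and 5 unbroken pairs, so elements of another form are missed. A gene without a match may still hold an element.

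At 8 weeks, 3 of the 9 tested members were higher in JR5558 than in C57BL/6J retinas and 0 were lower. The 3 were Mt1, Mt3 and Ftl1. Over all tested genes 2.54% were called higher and 2.63% lower in this comparison (edgeR's quasi-likelihood test, adjusted p under 0.05). The members, and the other metal genes below, were chosen with earlier results of these data known. Values over all genes are therefore set beside theirs as a description and not as a test of the set. The median log2 fold change of the 9 members was 0.26, against -0.000697 over all genes. At an unadjusted p under 0.05 the members numbered 5 higher and 1 lower, against 1567 higher and 1620 lower of all 18334 tested genes. DESeq2 called the same 3. At 4 weeks, 1 of the 9 was higher, Ftl1, and 0 were lower, against 3.27% and 2.9% of all genes. The 4-week median was 0.17 over the members and -0.00116 over all genes. At an unadjusted p under 0.05 there were 4 members higher and 0 lower, against 1762 and 1732 of all 18334 tested genes. DESeq2 called 2 members higher at 4 weeks, Mt1 and Ftl1, and 0 lower. In whole retinas, more cells of a type and more RNA per cell cannot be told apart.

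**Figure D1:**
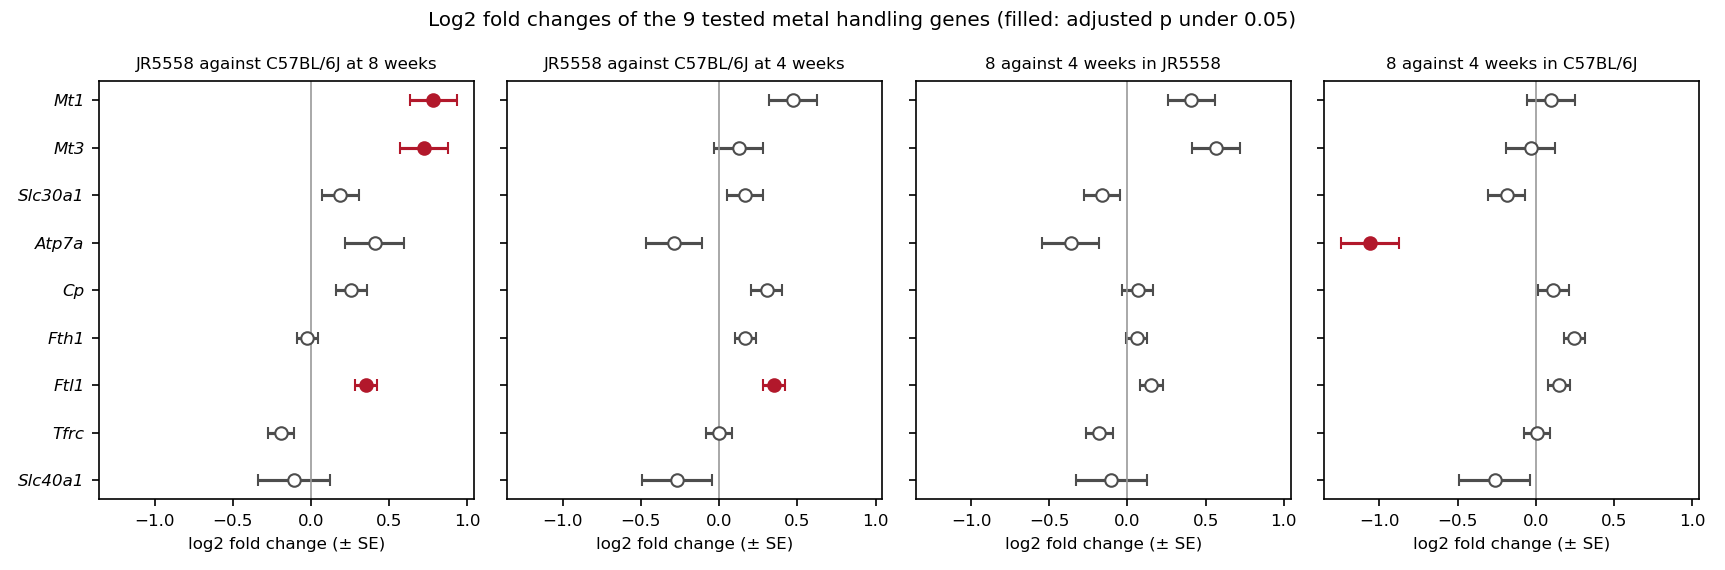
Log2 fold change (± SE, n = 3 mice a group) of the 9 tested members, 1 row each, in the 4 pairwise comparisons, 1 panel each; filled points passed an adjusted p of 0.05 in edgeR's test over all genes. Mt1, Mt3 and Ftl1 are filled at 8 weeks, Ftl1 alone at 4 weeks, none for age in JR5558 and Atp7a alone for age in C57BL/6J.

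Mt1, the widely expressed metallothionein, was higher in JR5558 at 8 weeks. It had 105, 84.1 and 113 CPM in the 8-week JR5558 retinas, against 63.5, 60.2 and 51.9 CPM in the 8-week C57BL/6J retinas. All 3 JR5558 values lay above all 3 C57BL/6J values. The log2 fold change was 0.78 ± 0.15 (SE, adjusted p = 0.00327, edgeR), and it kept its call in every alternative run, with adjusted p up to 0.029. At 4 weeks Mt1 had 73.4, 63.6 and 90.6 CPM in JR5558 against 48.9, 45.4 and 69.7 CPM in C57BL/6J, and the groups overlapped through the highest C57BL/6J library. The 4-week log2 fold change was 0.47 ± 0.15 (adjusted p = 0.0808, edgeR). Without that C57BL/6J library, replicate 3, it was 0.69 with an adjusted p of 0.00361. The 4-week difference also passed without replicate 2 of JR5558 (adjusted p = 0.0466), with DESeq2 (0.0379), with no filter (0.000164) and with the replicate block (0.0406).

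Mt3, known as the brain metallothionein, was also higher in JR5558 at 8 weeks. Its CPM was 19.5, 24.1 and 27.9 in the 8-week JR5558 retinas and 13.9, 12.1 and 17.3 in the 8-week C57BL/6J retinas, with no overlap. The log2 fold change was 0.73 ± 0.15 (adjusted p = 0.0066, edgeR). The call was lost without replicate 3 of JR5558 (adjusted p = 0.0654) and without replicate 2 of C57BL/6J (0.054). At 4 weeks Mt3 had 14.7, 18.8 and 14.9 CPM in JR5558 against 15.8, 15.1 and 13.5 CPM in C57BL/6J, which overlapped. The 4-week log2 fold change was 0.12 ± 0.16 (adjusted p = 0.733, edgeR).

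Mt2, the metallothionein that is usually induced together with Mt1, had few or no counts in each library. Its raw counts were 6, 19 and 12 in the 8-week JR5558 retinas, against 2, 0 and 3 in the 8-week C57BL/6J retinas. At 4 weeks they were 6, 5 and 0 in JR5558 against 0, 1 and 3 in C57BL/6J. The lowest 8-week JR5558 library was above the highest library of C57BL/6J at either age, and the 4-week groups overlapped. Summed over 3 libraries there were 37 and 11 counts in JR5558 at 8 and 4 weeks and 5 and 4 in C57BL/6J. With no filter on low counts the 8-week log2 fold change was 2.67 ± 1.1 (adjusted p = 0.203, edgeR), which depends on the prior count. A gene on the other strand, Gm45774, overlaps Mt2 and held 1 to 11 counts per library, and whether the counting used strand is not given in the sources used here. How reads in this overlap were counted is therefore not known, and the low counts of Mt2 may not show its level. Mt4, a metallothionein of stratified epithelia, had 7 counts in 1 C57BL/6J library of 8 weeks and 0 elsewhere.

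**Figure D2:**
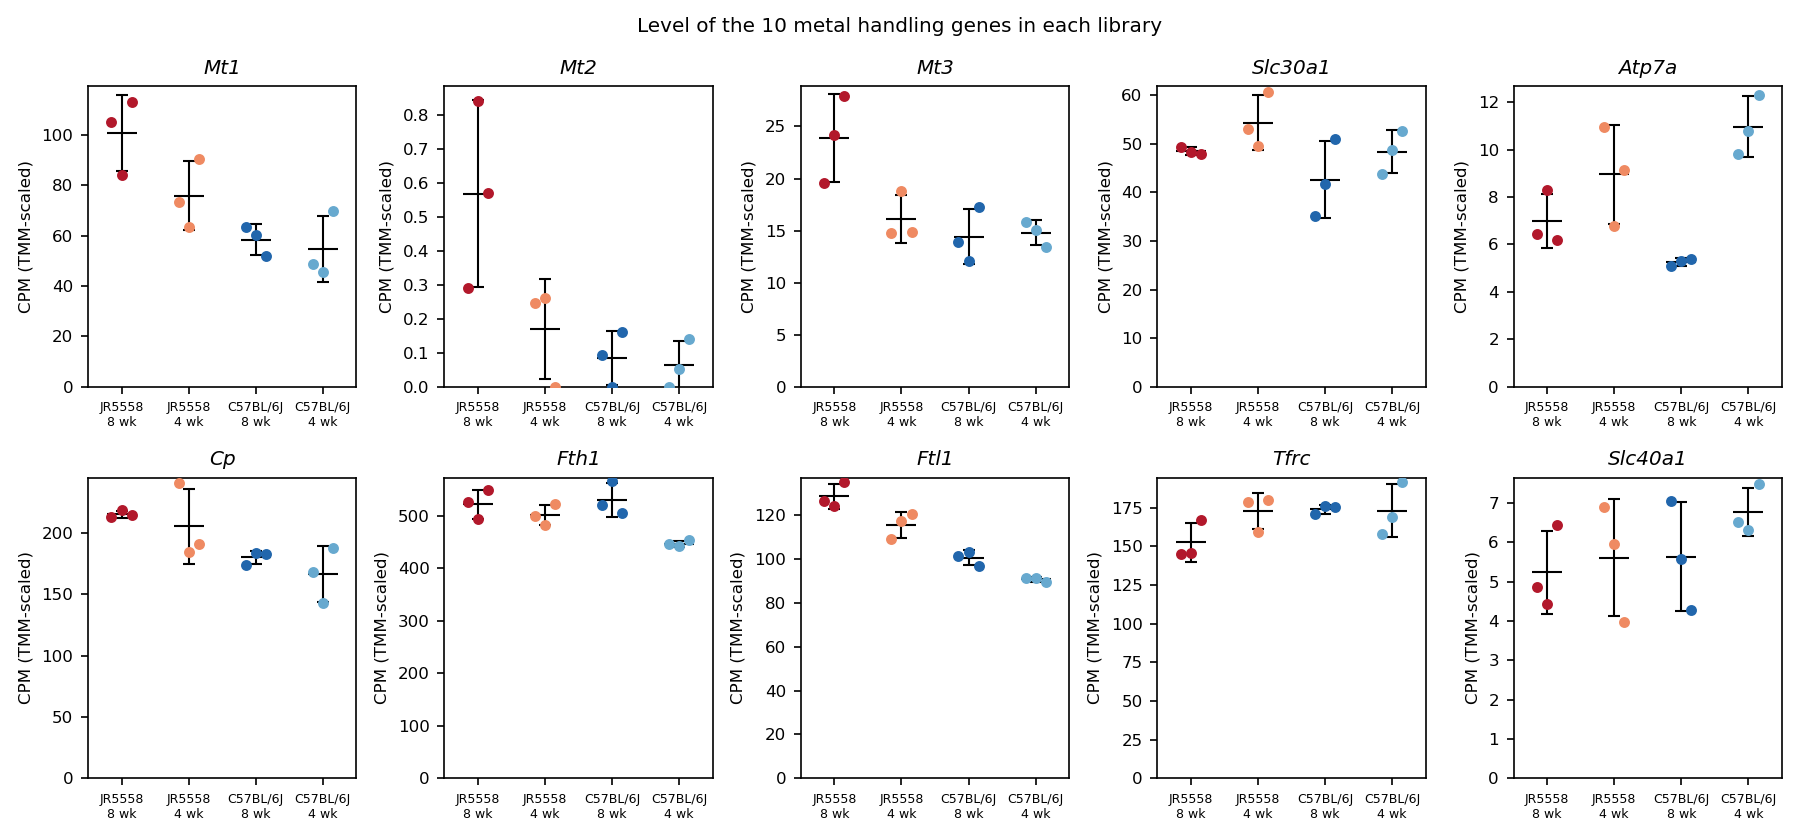
CPM (TMM-scaled) of each of the 10 members in each library, 1 panel a gene, with points for libraries and bars for the mean ± SD of 3 mice; panels have their own scale from 0. In the Mt1, Mt2, Mt3, Ftl1, Cp and Atp7a panels all 3 JR5558 points of 8 weeks lie above the 8-week C57BL/6J points. For Mt2 this rests on at most 19 counts per library.

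Slc30a1, the plasma membrane exporter of zinc and a target of Mtf1, did not pass in either strain comparison. It had 49.4, 48.3 and 47.9 CPM in the 8-week JR5558 retinas against 35.1, 41.7 and 51 CPM in the 8-week C57BL/6J retinas. The single highest value was a C57BL/6J one, so the groups overlapped. The log2 fold change was 0.19 ± 0.12 at 8 weeks (adjusted p = 0.447, edgeR) and 0.17 ± 0.12 at 4 weeks (adjusted p = 0.489). The 4-week values ran from 49.5 to 60.5 CPM in JR5558 and from 43.8 to 52.6 CPM in C57BL/6J. Its neighbour on the other strand, 1700034H15Rik, overlaps it with 26 to 85 counts, against at least 752 of Slc30a1.

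Atp7a, the X-linked pump that loads copper onto enzymes and out of cells, had its largest difference with age in C57BL/6J. Its CPM was 5.09, 5.31 and 5.40 in C57BL/6J retinas of 8 weeks and 9.80, 10.8 and 12.3 in those of 4 weeks. The 8-week values all lay below the 4-week ones. This was a log2 fold change of -1.06 ± 0.19 (adjusted p = 0.0155, edgeR), on 96 to 109 counts per library at 8 weeks and 176 to 262 at 4 weeks. The call was lost without any single one of the 8-week libraries, with adjusted p of 0.0722, 0.0941 and 0.0576 without replicates 1, 2 and 3. Xist was also lower at 8 weeks in this comparison, and any link with Atp7a was not tested. In JR5558 Atp7a had 6.46, 8.29 and 6.20 CPM at 8 weeks against 11, 6.80 and 9.13 CPM at 4 weeks, which overlapped (log2 fold change -0.36 ± 0.18, adjusted p = 0.321). Between strains the log2 fold change was 0.41 ± 0.19 at 8 weeks (adjusted p = 0.265), with all JR5558 values above, and -0.29 ± 0.18 at 4 weeks (adjusted p = 0.415), with overlap.

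Cp, the ceruloplasmin ferroxidase, carries copper and acts in iron export. It had 213, 219 and 214 CPM in the 8-week JR5558 retinas against 174, 184 and 183 CPM in the 8-week C57BL/6J retinas. The groups did not overlap, but the log2 fold change of 0.26 ± 0.10 missed the threshold (adjusted p = 0.168, edgeR). It passed with only the 2 groups in the fit (adjusted p = 0.00274) and with no filter (0.0454). At 4 weeks Cp had 240, 185 and 191 CPM in JR5558 and 168, 143 and 188 CPM in C57BL/6J, which overlapped (log2 fold change 0.30 ± 0.10, adjusted p = 0.0847). Without replicate 3 of C57BL/6J at 4 weeks the adjusted p was 0.0147, and with no filter it was 0.0194. Hps3 overlaps Cp on the other strand with 786 to 1232 counts, against at least 2693 of Cp, so part of the Cp reads cannot be told apart from Hps3 without strand.

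Ftl1, the ferritin light chain, was the member called at both ages, though at 4 weeks strain and sex cannot be told apart. It had 127, 124 and 135 CPM in the 8-week JR5558 retinas against 102, 104 and 96.9 CPM in the 8-week C57BL/6J retinas. In the 4-week retinas Ftl1 had 109, 118 and 121 CPM in JR5558 against 91.5, 91.3 and 89.5 CPM in C57BL/6J. The strains did not overlap at either age, and even the lowest 4-week JR5558 value exceeded the highest C57BL/6J value of 8 weeks. For Ftl1 it was 0.35 ± 0.07 on the log2 fold change scale at 8 weeks (adjusted p = 0.00447, edgeR) and 0.35 ± 0.07 at 4 weeks (adjusted p = 0.00463). Neither call was lost without any single library of the groups compared, and the 4-week one was lost with only the 2 groups in the fit (adjusted p = 0.0583). Ftl1 lies on chromosome 7 at 45107368 to 45109308 in the deposited table, on the - strand. Its processed copy Ftl1-ps1 held 30 to 66 counts per library, against at least 1643 of Ftl1, and adding the copies kept both calls.

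Fth1, the ferritin heavy chain that oxidises iron on entry, did not follow its partner at 8 weeks. It had 526, 494 and 549 CPM in the 8-week JR5558 retinas against 521, 567 and 505 CPM in the 8-week C57BL/6J retinas, which overlapped (log2 fold change -0.02 ± 0.07, adjusted p = 0.911, edgeR). In the 4-week retinas Fth1 had 500, 483 and 522 CPM in JR5558 and 446, 442 and 453 CPM in C57BL/6J. The 4-week groups did not overlap, and the log2 fold change of 0.17 ± 0.07 missed the threshold (adjusted p = 0.171). Within C57BL/6J the 8-week values were all above the 4-week ones, with a log2 fold change of 0.25 ± 0.07 (adjusted p = 0.111). That difference passed with DESeq2 (adjusted p = 0.025).

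Tfrc, the receptor that takes up transferrin, was the member whose 8-week JR5558 values all lay below those of C57BL/6J. It had 145, 146 and 167 CPM in JR5558 against 171, 176 and 176 CPM in C57BL/6J. The log2 fold change of -0.19 ± 0.08 did not pass (adjusted p = 0.24, edgeR). In the 4-week retinas Tfrc had 179, 159 and 180 CPM in JR5558 and 158, 169 and 192 CPM in C57BL/6J, a log2 fold change of -0.0032 ± 0.08 with overlap. Slc40a1, ferroportin, the exporter of iron, was low, with 80 to 167 counts per library. It had 4.86, 4.44 and 6.43 CPM in the 8-week JR5558 retinas against 7.05, 5.59 and 4.28 CPM in the 8-week C57BL/6J retinas. At 4 weeks it had 6.89, 5.96 and 3.98 CPM in JR5558 against 6.52, 6.32 and 7.48 CPM in C57BL/6J. Neither strain comparison of Slc40a1 passed, with log2 fold changes of -0.11 ± 0.23 and -0.27 ± 0.23 (adjusted p = 0.866 and 0.582).

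Of the 9 tested members, 6 had groups that did not overlap at 8 weeks, against 30.2% of all tested genes. JR5558 lay above in 5 of them, Mt1, Mt3, Atp7a, Cp and Ftl1, against 14.9% of all tested genes, and below in 1, Tfrc, against 15.3%. At 4 weeks there were 2, Ftl1 and Fth1, against 19.6% of all tested genes. JR5558 lay above in both, against 10.1% of all tested genes, and below in 0, against 9.55%.

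Because Ftl1 and Fth1 build 1 shell, their ratio was taken within each library from the authors' FPKM, fragments per gene length and library total. The Ftl1 to Fth1 ratio was 0.624, 0.652 and 0.637 in the 8-week JR5558 retinas against 0.505, 0.473 and 0.496 in the 8-week C57BL/6J retinas. At 4 weeks it was 0.565, 0.630 and 0.597 in JR5558 against 0.531, 0.534 and 0.511 in C57BL/6J. All JR5558 ratios lay above all C57BL/6J ratios at the same age. The means were 0.638 ± 0.0142 against 0.491 ± 0.0167 at 8 weeks and 0.597 ± 0.0326 against 0.525 ± 0.0128 at 4 weeks (SD, n = 3 each). Each gave p = 0.1 in a two-sided exact permutation test, the smallest that 3 against 3 can reach, so no ratio can pass 0.05 in this design.

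Iron regulatory proteins are known to act on Tfrc through mRNA stability and on Fth1 through translation. A ratio of their mRNA levels therefore does not measure this control and is given as a description. The Tfrc to Fth1 ratio was 0.155, 0.165 and 0.171 in JR5558 retinas of 8 weeks and 0.201, 0.185 and 0.193 in those of 4 weeks. In C57BL/6J it was 0.184, 0.174 and 0.195 at 8 weeks and 0.199, 0.215 and 0.238 at 4 weeks. The 8-week ratios were lower than the 4-week ones in each strain with no overlap, and the 8-week JR5558 ratios lay below the 8-week C57BL/6J ratios (exact permutation p = 0.1 in each of these 3 comparisons). The 4-week strains overlapped (exact permutation p = 0.2). For age, Fth1 had log2 fold changes of 0.25 ± 0.07 in C57BL/6J and 0.06 ± 0.07 in JR5558. Those of Tfrc were 0.0083 ± 0.08 in C57BL/6J and -0.18 ± 0.08 in JR5558, and none of these passed (edgeR). The Mt1 to Mt3 ratio overlapped in all 4 comparisons, with means of 3.68 ± 0.83 in JR5558 and 3.58 ± 0.889 in C57BL/6J at 8 weeks. In all, 12 ratio comparisons were made, and none was adjusted because none could pass.

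**Figure D3:**
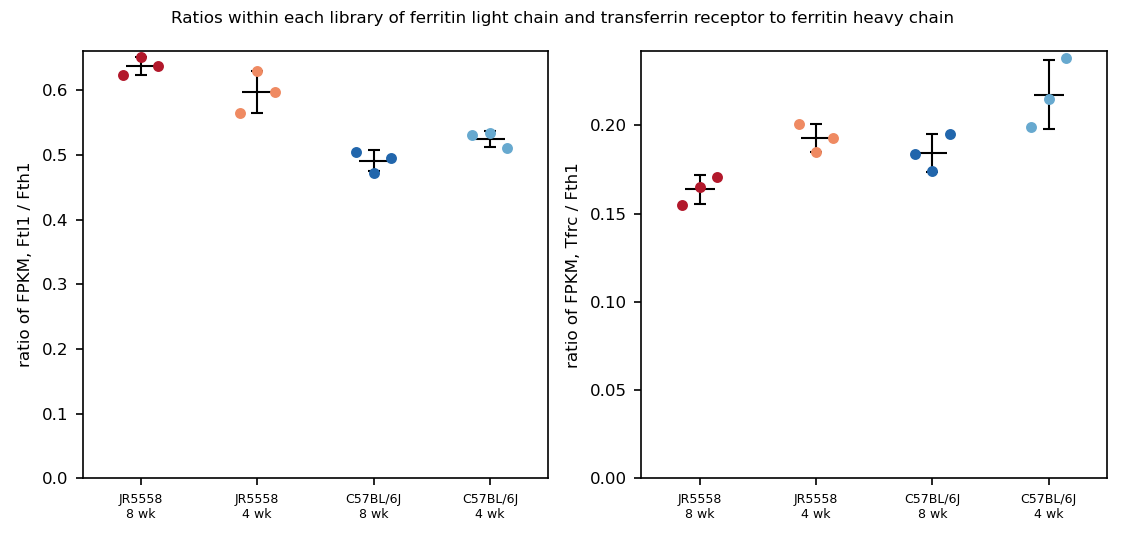
Ratios of FPKM within each library, Ftl1 over Fth1 on the left and Tfrc over Fth1 on the right, with points for libraries and bars for the mean ± SD (n = 3 mice a group). The Ftl1 to Fth1 means are 0.638 and 0.597 in JR5558 and 0.491 and 0.525 in C57BL/6J at 8 and 4 weeks.

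Cell type markers also differed between the strains. Among all tested genes 2.54% were called higher at 8 weeks and 3.27% at 4 weeks (edgeR). Of 12 Muller glia markers, 5 were higher in JR5558 at 8 weeks and 6 at 4 weeks, and their summed level was 6310 to 6600 CPM in JR5558 against 5070 to 5430 CPM in C57BL/6J at 8 weeks. The sum of 10 reactive glia markers was 317 to 343 CPM in JR5558 against 168 to 183 CPM in C57BL/6J at 8 weeks, with 6 of 10 higher at 8 weeks and 7 at 4 weeks. The sum of 12 pigment epithelium markers was 490 to 666 CPM in JR5558 against 218 to 350 CPM in C57BL/6J at 8 weeks, with 3 of 12 higher at 8 weeks and 10 at 4 weeks. The sum of 12 microglia and macrophage markers was 94.6 to 112 CPM in JR5558 against 62 to 66.3 CPM in C57BL/6J at 8 weeks, with 4 higher at 8 weeks and 5 at 4 weeks. At 4 weeks the sums in JR5558 against C57BL/6J were 5330 to 6050 against 4600 to 5240 CPM for Muller glia, 225 to 394 against 163 to 171 CPM for reactive glia and 426 to 603 against 154 to 293 CPM for pigment epithelium. The 4-week sums were 84.1 to 96 against 58.8 to 68.8 CPM for microglia and macrophages. Slc45a2 of the pigment epithelium list and Aif1 of the microglia list were at 0 in 1 C57BL/6J library of 8 weeks each, and no other marker of these 4 lists was at 0 in any library. The part of these cell types in the differences of Mt1, Mt3, Ftl1 and Cp, and in those of Trf and the other metal genes given below, was not tested.

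Endothelial markers summed to 399 to 413 CPM in JR5558 against 314 to 325 CPM in C57BL/6J at 8 weeks, and the list was split, with a median log2 fold change of -0.22 over its 8 genes. Kdr, a receptor of vascular growth factors, was called higher (0.56 ± 0.07, adjusted p = 4.17e-05), and Cldn5, a tight junction protein, was called lower (-0.65 ± 0.14, adjusted p = 0.00918; edgeR). The JR5558 values lay all above for Kdr, Flt1 and Ramp2, against 14.9% of all genes. They lay all below for Cldn5, Emcn and Pecam1, against 15.3%. Calls took in 2.54% of all genes as higher and 2.63% as lower. At 4 weeks the endothelial sum was 425 to 444 CPM in JR5558 against 303 to 334 CPM in C57BL/6J, with a median of 0.03. Of the 8 genes 2 were higher (Kdr and Ramp2) and 0 lower, against 3.27% and 2.9% of all genes. Blood cell markers summed to 20.1 to 21.5 CPM in JR5558 against 14.6 to 46.7 CPM in C57BL/6J at 8 weeks, with 0 of 5 tested genes called, and Slc4a1 was at 0 in all 12 libraries. Lens markers summed to 8.72 to 60.6 CPM in JR5558 against 6.72 to 45.6 CPM in C57BL/6J at 8 weeks, with 0 of 7 tested genes called. At 4 weeks the lens sums were 1.57 to 31.5 CPM in JR5558 against 7.7 to 130 CPM in C57BL/6J. Their median log2 fold change was -1.79, with 0 of 7 called (edgeR). Blood cell sums at 4 weeks were 43.6 to 59.5 CPM in JR5558 against 28.5 to 55.4 CPM in C57BL/6J, with 0 of 5 called. The 7 rod markers Gnat1, Pde6a, Pde6b, Sag, Nrl, Cnga1 and Rom1 summed to 20400 to 21100 CPM in JR5558 against 23400 to 24600 CPM in C57BL/6J at 8 weeks. Of these 7, 2 were called lower (Gnat1 and Pde6b) and 0 higher, against 2.63% and 2.54% of all genes. In 5 all JR5558 values lay below, against 15.3% of all genes. The rod sums at 4 weeks overlapped, at 18700 to 20600 CPM in JR5558 against 19600 to 20900 CPM in C57BL/6J, with 0 of 7 called by edgeR. At an unadjusted p under 0.05 there was 1 lower, against 1732 of all 18334 tested genes. The part of rods, vessels, blood and lens in the members' differences was not tested.

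Between the ages, no member passed in JR5558 with edgeR, while 1.51% of all genes were called, 0.676% higher and 0.835% lower at 8 weeks. Mt3 came nearest, with 8-week values all above the 4-week values given above and a log2 fold change of 0.57 ± 0.15 (adjusted p = 0.0695). Mt1 had a log2 fold change of 0.41 ± 0.15 (adjusted p = 0.172) with overlap, and Ftl1 one of 0.15 ± 0.07 (adjusted p = 0.281) without overlap. Slc30a1 lay lower at 8 than at 4 weeks in all JR5558 libraries, a log2 fold change of -0.16 ± 0.12 (adjusted p = 0.51). At an unadjusted p under 0.05 the members numbered 3 higher and 1 lower at 8 weeks, against 1557 and 1536 of all 18334 tested genes. DESeq2 called Mt3 (adjusted p = 0.0157), as did the fit of only the 2 groups (0.0464), the fit with no filter (0.00263) and the fit without replicate 1 of JR5558 at 8 weeks (0.0487). The fit with no filter also called Mt1 (adjusted p = 0.00114). Markers of other cell types also differed between the ages of JR5558. Blood cell markers summed to 20.1 to 21.5 CPM at 8 weeks against 43.6 to 59.5 CPM at 4 weeks, with all 5 tested genes lower in every 8-week library and 2 called lower (Hba-a1 and Hbb-bs). Endothelial markers summed to 399 to 413 CPM at 8 weeks against 425 to 444 CPM at 4 weeks, with 1 called lower (Pecam1) and 5 of 8 all below. Of all tested genes 12.2% lay below in every 8-week library. Muller glia markers summed to 6310 to 6600 CPM at 8 weeks against 5330 to 6050 CPM at 4 weeks, with 1 of 12 called higher. The part of these cell types in the age differences of JR5558, Slc31a2 below included, was not tested.

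In C57BL/6J, 1 of 9 members was lower at 8 than at 4 weeks, Atp7a, against 0.229% of all genes. None was higher (edgeR), against 0.202% of all genes. DESeq2 gave 1 higher, Fth1. The same gene was the 1 higher at an unadjusted p under 0.05, against 1222 of all 18334 tested genes. Of the 7 rod markers, 2 were higher at 8 weeks in C57BL/6J (Gnat1 and Sag), with summed levels of 23400 to 24600 CPM at 8 weeks against 19600 to 20900 CPM at 4 weeks, and their part in the age values of the members was not tested. Mt1 and Mt3 moved little, with log2 fold changes of 0.10 ± 0.15 and -0.03 ± 0.16. The number of members whose ages did not overlap was 3 in JR5558 and 3 in C57BL/6J, against 24.3% and 19% of all tested genes. In JR5558 the 8-week values of Mt3 and Ftl1 lay above and those of Slc30a1 below, against 12% and 12.2% of all tested genes. In C57BL/6J those of Fth1 and Ftl1 lay above and those of Atp7a below, against 8.98% and 10% of all tested genes, with Ftl1 at a log2 fold change of 0.15 ± 0.07 (adjusted p = 0.349).

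Whether the strain difference itself changed between the ages was tested as an interaction. It takes in the JR5558 libraries of 4 weeks, the only ones with Y-linked counts, so sex cannot be told apart from this change. No member passed with edgeR or DESeq2. Of all genes edgeR called 0.0927%, 0.0545% with a larger and 0.0382% with a smaller difference at 8 weeks. At an unadjusted p under 0.05 there were 622 larger and 696 smaller of all 18334 tested genes, and 2 members. These were Mt3, whose log2 fold change was larger at 8 weeks by 0.60 ± 0.22 (adjusted p = 0.514), and Atp7a, by 0.70 ± 0.26 (adjusted p = 0.536). The strain difference of Mt1 was larger at 8 weeks by 0.31 ± 0.22 (adjusted p = 0.805). That of Ftl1 differed by 0.0038 ± 0.10 (adjusted p = 0.999). Calls at 8 weeks only, as for Mt1 and Mt3, are thus not shown to differ from 4 weeks.

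Per gene length, ferritin and Mt1 led the members in every group. Fth1 averaged 150 ± 8.11 and 143 ± 5.50 FPKM in JR5558 at 8 and 4 weeks and 152 ± 9.17 and 128 ± 2.51 FPKM in C57BL/6J (SD, n = 3 each). Ftl1 followed with 95.4 ± 4.30 and 85.6 ± 4.42 FPKM in JR5558 and 74.6 ± 2.42 and 67.3 ± 0.465 FPKM in C57BL/6J. Mt1 came next with a mean of 80.3 FPKM in JR5558 at 8 weeks, where its highest library (90.3 FPKM) was just under the lowest of Ftl1 (92 FPKM), and of 43.7 FPKM in C57BL/6J at 4 weeks. Tfrc, Cp and Mt3 came after Mt1 in that order in all 4 groups. Tfrc averaged 24.5 to 28 FPKM and Cp 17.3 to 22.3 FPKM over the groups. Mt3 averaged 22.2 FPKM in JR5558 at 8 weeks, where it overlapped Cp, and 13.5 to 15 FPKM in the other groups, where it did not. Slc30a1 averaged 8.07 to 10.3 FPKM. Atp7a (0.599 to 1.25 FPKM), Slc40a1 (0.579 to 0.749 FPKM) and Mt2 (0.110 to 0.960 FPKM) were lowest and changed places. The place of Mt2 rests on counts that may not show its level, given its overlap with Gm45774. Mt2 overlapped Atp7a, and Atp7a overlapped Slc40a1, in JR5558 at 8 weeks. Slc40a1 overlapped Mt2 in JR5558 at 4 weeks and Atp7a in C57BL/6J at 8 weeks.

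**Figure D4:**
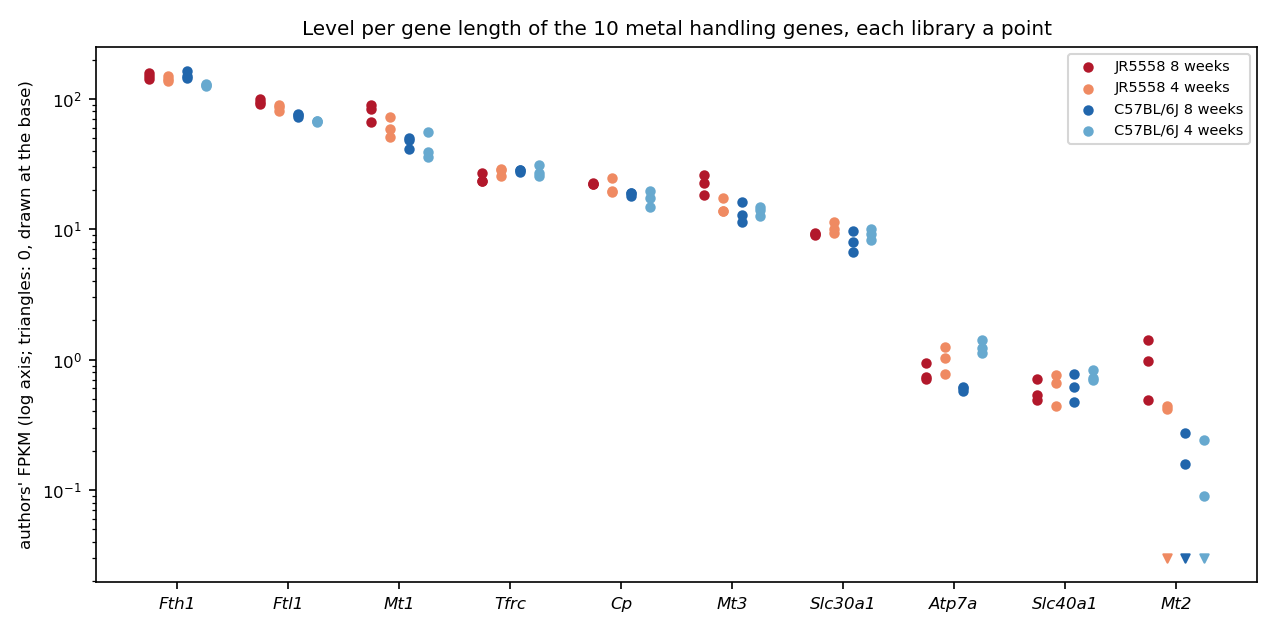
FPKM by the authors (log axis) of the 10 members in each library, genes ordered by level and libraries coloured by group; triangles at the base are libraries with 0. Fth1 leads at 126 to 162 FPKM, Mt1 spans 36 to 90.3 FPKM, and the lowest genes, Atp7a, Slc40a1 and Mt2, lie near or below 1 FPKM. For Mt2 these values may not show its level.

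Other genes of zinc, copper, iron and heme handling were counted from lists of 88 genes in all, 78 of them tested. At 8 weeks 4 were higher and 1 lower in JR5558, with a median log2 fold change of 0.06, and at 4 weeks 5 were higher and 1 lower, with a median of 0.09. Over all genes 5.18% and 6.16% were called. In the 4-week strain calls here and below, strain and sex cannot be told apart. The 10 tested genes of iron regulation had 0 calls in either strain comparison (edgeR). They include the sensors Aco1 and Ireb2, with log2 fold changes of -0.03 ± 0.08 and -0.10 ± 0.08 at 8 weeks. Mtf1, the zinc sensor, had 0.20 ± 0.09 at 8 weeks (adjusted p = 0.277) and -0.12 ± 0.09 at 4 weeks (adjusted p = 0.537).

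Trf, transferrin, which carries iron to Tfrc, was the iron list's single call, at both ages. It had 461, 374 and 516 CPM in the 8-week JR5558 retinas against 174, 173 and 137 CPM in the 8-week C57BL/6J retinas. In the 4-week retinas Trf had 407, 230 and 319 CPM in JR5558 against 126, 65.8 and 153 CPM in C57BL/6J. The strains did not overlap at either age. Trf had a log2 fold change of 1.48 ± 0.23 (adjusted p = 3e-04, edgeR) at 8 weeks and 1.47 ± 0.23 (adjusted p = 0.000316) at 4 weeks. Of the 15 tested genes in its list 1 was higher and 0 were lower at each age. Shares of all genes were 2.54% and 2.63% at 8 weeks and 3.27% and 2.9% at 4 weeks.

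In the copper list 2 of 14 tested genes were higher at each age, the metalloreductases Steap4 and Steap2, and 0 were lower. Among all genes 2.54% were higher and 2.63% lower at 8 weeks, and 3.27% and 2.9% at 4 weeks. Steap4 had 3.55, 4.35 and 4.05 CPM in the 8-week JR5558 retinas against 1.26, 1.05 and 0.749 CPM in the 8-week C57BL/6J retinas. Its log2 fold change was 1.95 ± 0.38 at 8 weeks (adjusted p = 0.00344, edgeR) and 2.19 ± 0.40 at 4 weeks (adjusted p = 0.00157). Steap2 averaged 124 ± 6.93 CPM in JR5558 against 88.3 ± 9.55 CPM in C57BL/6J at 8 weeks and 126 ± 11.8 against 90 ± 15.3 CPM at 4 weeks (SD, n = 3 each). Its log2 fold changes were 0.49 ± 0.11 at both ages (adjusted p = 0.00976 and 0.00979). Those calls were lost without replicate 1 of C57BL/6J at 8 weeks (0.082), replicate 1 of JR5558 at 8 weeks (0.0609), replicates 1 or 2 of C57BL/6J at 4 weeks (0.0564 and 0.0725) or replicate 2 of JR5558 at 4 weeks (0.0501). The 4-week call was also lost with only the 2 groups in the fit (0.0527).

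In the zinc list 1 of 23 tested genes was lower in JR5558 at 8 and at 4 weeks, against 2.63% and 2.9% of all genes. This was Slc39a2, a zinc importer. It had 1.70, 2.62 and 1.95 CPM in the 8-week JR5558 retinas against 7.00, 5.26 and 5.13 CPM in the 8-week C57BL/6J retinas, and 1.16, 1.41 and 1.13 against 3.40, 5.63 and 4.23 CPM at 4 weeks. Slc39a2 had a log2 fold change of -1.47 ± 0.26 (adjusted p = 0.00118, edgeR) at 8 weeks and -1.84 ± 0.27 (adjusted p = 0.000205) at 4 weeks, with no overlap. Slc39a12, another importer of that family, was the 1 zinc gene higher at 4 weeks, against 3.27% of all genes. Its log2 fold change was 0.90 ± 0.22 (adjusted p = 0.0192, edgeR). It had 6.48, 4.97 and 7.37 CPM in JR5558 against 3.06, 2.87 and 4.14 CPM in C57BL/6J. The call was lost in 4 of the 6 fits that left out a 4-week library of either strain, with adjusted p of 0.0557 to 0.0961, and with only the 2 groups in the fit (0.078).

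Among 17 tested heme genes 0 were lower, against 2.63% and 2.9% of all genes at 8 and 4 weeks. At each age 1 was higher, against 2.54% and 3.27% of all genes. At 8 weeks it was Flvcr2, a transporter described for heme, at 7.04, 6.43 and 7.05 CPM in JR5558 against 4.44, 4.15 and 2.83 CPM in C57BL/6J (log2 fold change 0.84 ± 0.24, adjusted p = 0.045, edgeR). The Flvcr2 call was lost in all 6 fits that left out an 8-week library, with adjusted p of 0.0648 to 0.188, and with the replicate block (0.0529). At 4 weeks it was Hpx, the heme scavenger hemopexin, on 32 to 45 counts per library in JR5558 against 10 to 11 in C57BL/6J (log2 fold change 1.78 ± 0.43, adjusted p = 0.0158). The Hpx call was lost without replicate 2 of JR5558 (0.0719) and without replicates 2 or 3 of C57BL/6J (0.0604 and 0.0557) at 4 weeks. Hmox1, the inducible enzyme of heme breakdown, had log2 fold changes of -0.14 ± 0.25 at 8 weeks and 0.52 ± 0.25 at 4 weeks (adjusted p = 0.846 and 0.266).

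**Figure D5:**
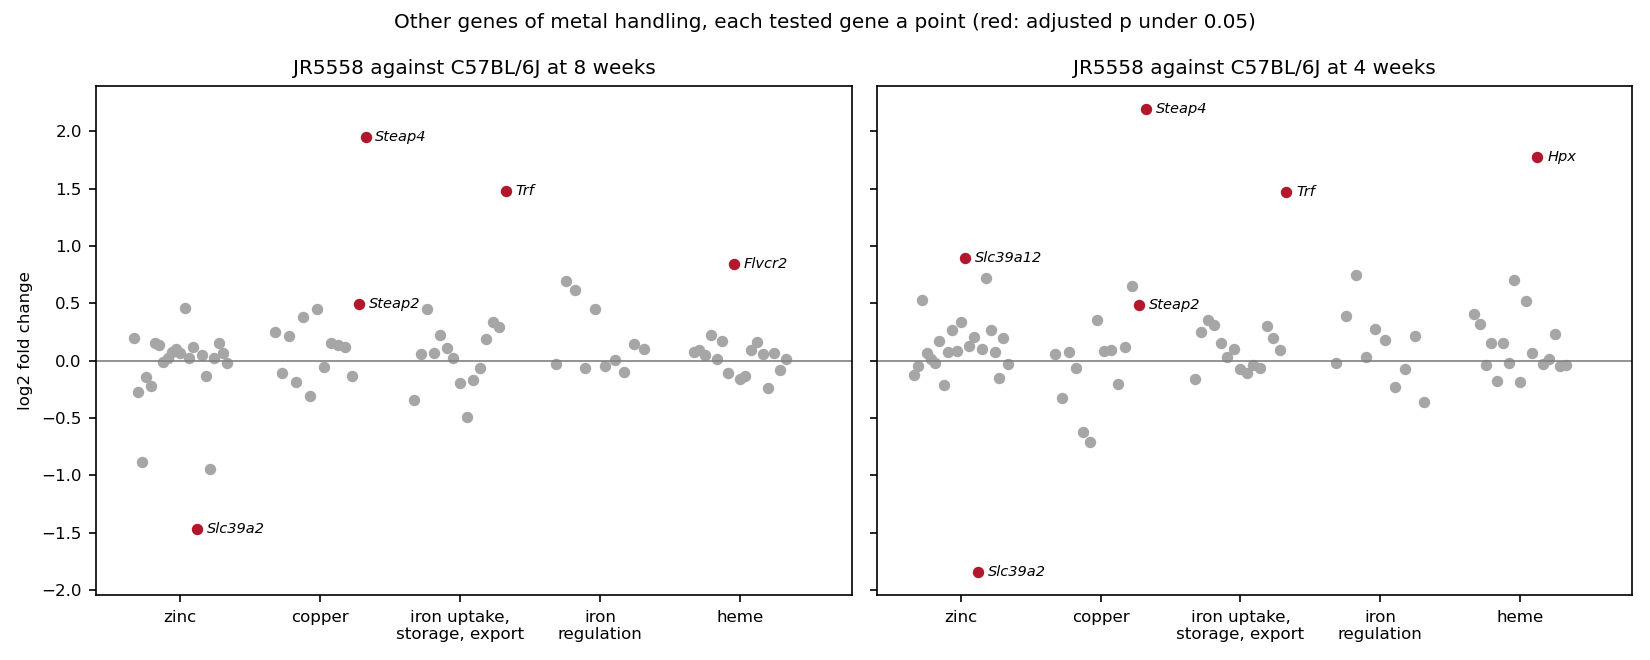
Log2 fold change of every tested gene in the 5 other metal lists, JR5558 against C57BL/6J at 8 weeks on the left and at 4 weeks on the right; red points passed an adjusted p of 0.05 and are named. Trf, Steap4 and Slc39a2 stand apart at both ages, while most genes of each list lie near 0.

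Between the ages, 1 of the 78 genes passed in JR5558 and 0 in C57BL/6J (edgeR), against 1.51% and 0.431% of all genes. In C57BL/6J 11 were higher and 5 lower at an unadjusted p under 0.05, against 1222 and 1420 of all 18334 tested genes. DESeq2 made 4 calls there. The JR5558 call was Slc31a2, a copper transporter, with 142, 151 and 149 CPM at 8 weeks against 103, 110 and 109 CPM at 4 weeks. Its log2 fold change was 0.46 ± 0.09 (adjusted p = 0.00988), and the call was lost without replicate 3 of JR5558 at 8 weeks (0.0612). The interaction had 0 calls among these genes in edgeR and in DESeq2. At an unadjusted p under 0.05 it had 3 higher and 3 lower, against 622 and 696 of all 18334 tested genes.

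Across the 12 libraries, the members' log2 CPM moved together to different degrees, given here as a description of libraries that share strain and age. Pearson's r was highest for Mt1 and Ftl1 (0.864), then for Mt1 and Cp (0.758) and for Mt3 and Ftl1 (0.716). Mt1 and Mt3, which are neighbours, had 0.571. The lowest was for Atp7a and Fth1 (-0.73). Among all tested genes outside pseudogenes and unnamed models, the patterns most like Mt1 were those of Sult1c1 (r = 0.937), Flvcr2 (0.93) and Bckdhb (0.928). The patterns most like Cp were those of Sulf1 (0.977), Oca2 (0.949) and Eif4e3 (0.927). Mt2 was too low to be set against other genes in this way.

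The authors' deposited table gives its own comparisons, and its test is not stated. In the authors' deposited table, 5 of the 10 members had an adjusted p under 0.05 between the strains at 8 weeks, Mt1, Mt3, Ftl1, Cp (2.19e-05) and Tfrc (0.0365). At 4 weeks the authors' deposited table had 1, Ftl1 (0.018). For age, the authors' deposited table had Mt1 (0.0185) and Mt3 (0.0101) in JR5558 and Atp7a (0.000174) in C57BL/6J.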

How the data were processed

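Poly-A RNA-seq of 12 whole retinas was analysed from the authors' deposited table. Per the submitters' processing notes, fastp, HISAT2 2.0.5, featureCounts 1.5.0-p3 and mm10 were used. The deposited counts are raw, per gene and library, per the file headers. FPKM values were computed by the authors over a gene length in the deposited table, by a method not stated. The authors' own comparisons are deposited as log2 fold changes with p-values, raw and adjusted, from a test not stated. Whether the counting used strand is not given in the sources used here.

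Groups follow the sample titles. The analysis used edgeR 4.0.16 and limma 3.58.1 in R 4.3.3, with DESeq2 1.42.0 as an alternative. The filter was filterByExpr with a minimum count of 10 and a minimum total of 15, which left 18334 genes. After TMM scaling, a model with a mean for each group took in all 12 libraries, and its 5 contrasts were tested two-sided with edgeR's quasi-likelihood test. P-values were adjusted by Benjamini-Hochberg over all tested genes, with a threshold of 0.05, and the SE of a log2 fold change is its size over the root of its F statistic. CPM are per 1e+06 TMM-scaled counts, and log2 CPM use a prior count of 2. Totals of 18029611 to 23739886 counts per library set the precision, and counts cover counting error only. P-values measure the spread between mice. The script was tested on simulated data.

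The text names all 10 members. From each of 5 other metal lists it names up to 4 genes past the threshold per comparison in the order of adjusted p. It also names the 3 genes most correlated with Mt1 and with Cp, and the gene copies of ferritin. Ireb2, Aco1, Mtf1, Hmox1, Mt4 and overlapping genes were named after their values were seen. The members and lists were chosen with earlier results of these data known. Alternatives were RLE scaling, other filters, DESeq2, the compared groups only, added ferritin copies, a replicate block and leaving out each library. A gene of the rod marker list is not reported here, and the rod sums and counts leave it out.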

Additional observations from a re-analysis of the deposited data

How the results depend on the processing

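Mt1 and Ftl1 at 8 weeks kept direction and call under every alternative run, and the report gives each member's lost or gained calls. Counts given here are of members, of other metal genes and of all genes, and the cause of each difference was not tested. With only the compared groups in the fit, the 8-week strain comparison called 8 other metal genes and 2183 genes in all, and the 4-week one 0 members and 558 genes. That fit gave 1 member, 3 other metal genes and 544 genes for age in JR5558, and 22 genes for age in C57BL/6J. With no filter on low counts there were 3 members at 4 weeks, then 2 members, 3 other metal genes and 854 genes for age in JR5558. The same setting gave 3 other metal genes and 445 genes for age in C57BL/6J, and 1 and 96 for the interaction. DESeq2 called 2 members at 4 weeks, 1 member, 3 other metal genes and 746 genes for age in JR5558, 2, 4 and 407 for age in C57BL/6J, and 63 genes for the interaction.

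Leaving out 1 library at a time gave 3 to 4 other metal genes and 538 to 649 genes at 8 weeks. At 4 weeks it gave 1 to 3 members and 3 to 8 other metal genes. For age in JR5558 it gave 0 to 1 members, 0 to 3 other metal genes and 63 to 689 genes, the highest without replicate 3 of JR5558 at 4 weeks and the lowest without replicate 3 at 8 weeks. For age in C57BL/6J it gave 0 to 1 members, 0 to 1 other metal genes and 16 to 125 genes. For the interaction it gave 0 to 1 other metal genes and 6 to 38 genes.

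Leaving out a library also turned the sign of 12 uncalled differences near 0. Their log2 fold changes then ran from -0.0577 to 0.0281 for Fth1 and -0.282 to 0.0881 for Slc40a1 between strains at 8 weeks, and from -0.0688 to 0.0784 for Tfrc at 4 weeks. For age they ran from -0.00324 to 0.203 for Cp and -0.292 to 0.0869 for Slc40a1 in JR5558, and from -0.03 to 0.312 for Mt1, -0.187 to 0.075 for Mt3 and -0.0564 to 0.0896 for Tfrc in C57BL/6J. For the interaction they ran from -0.0993 to 0.185 for Slc30a1, -0.142 to 0.094 for Cp, -0.0304 to 0.0414 for Ftl1 and -0.026 to 0.358 for Slc40a1.

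Replicate numbers did not pair the libraries, since deviations of same-numbered libraries correlated at -0.091 to 0.087, and no comparison had every library matching best with its own number. With the replicate block the members called numbered 3 at 8 weeks, 2 at 4 weeks (1 without it), 0 and 1 for age in JR5558 and C57BL/6J, and 0 for the interaction. RLE scaling moved the median of all genes by at most 0.0039 log2 in size. Low counts limit Mt2, with at most 19 per library, and leave Slc40a1 and Atp7a with wide errors.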
